A study of Mus musculus with 17 samples.

Results

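The gene-start H3.3 regions of similar width are 1105 stretches of mouse chromosomes 1 to 19 in which an island, a run of 200-bp windows holding more ChIP reads than the background, was called in every one of 4 histone H3.3 libraries of newborn lens. They were chosen from 38396 regions made by merging islands with at least 1 bp in common over the 4 libraries. From 3839 autosomal regions with an island in all 4 libraries, the members are those that contained the first base of a protein-coding gene and in which the mean island length of the fiber libraries was under 2 times that of the epithelium libraries. The other 905 gene-start regions, with a ratio of 2 or more, are called widened in fibers, and 1829 regions held no protein-coding start. Island length chose the members, so every value of length is a description without a test. A start base inside the merged region was also part of the choice. Reads per kb, the sequence and the kinds of genes were not, although island length is the denominator of reads per kb. The need for a called island in every library also sets a floor under reads per kb.

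The libraries came from CD1 mice, with 2 biological replicates of microdissected lens epithelium and 2 of lens fibers. No gene was altered and no agent was given. The sample titles give day 1 after birth and the protocol text gives day 0.5. Each library was made from chromatin of many pooled lenses, and whether the pools of a replicate number came from the same animals is not given. With 2 libraries against 2, an exact permutation test cannot go below p = 0.333.

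Histone H3.3 is a form of histone H3 that is placed into chromatin outside of DNA replication, mainly by the HIRA complex at active genes and by the DAXX and ATRX proteins at silent repeats. Nucleosomes at the starts and along the bodies of transcribed genes are exchanged often and become rich in H3.3, so its presence at a gene start is widely read as a mark of active chromatin. The lens has a layer of dividing epithelial cells over its front, and these cells leave the cell cycle and elongate into fibers, which fill with crystallins and lose their nuclei. Genes that every cell needs are used in both compartments, whereas crystallin and fiber membrane genes are used most in fibers.

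Upstream sequences of 5 members show how the DNA at these starts differs, and each is given as the 150 bases before the annotated gene start, on the strand of the gene, from the RefSeq copy of GRCm38.p6 (mm10), with every CpG in capitals. Alad was picked for the most CpG in this stretch among genes of the 5 regions with the most reads per kb. Mafg and H3f3a were picked for the most CpG among the genes named from the gene lists. Alad encodes an enzyme of haem synthesis, Mafg encodes a small Maf transcription factor used in lens, and H3f3a is one of the genes for H3.3 itself. Pax6, the master regulator of eye development, and Cryaa, which encodes αA-crystallin, are added as lens genes for contrast and were picked after their values were seen. The stretches lie at chr4:62519919-62520068 (minus strand), chr11:120633601-120633750 (minus strand), chr1:180813944-180814093 (minus strand), chr2:105668750-105668899 (plus strand) and chr17:31677657-31677806 (plus strand).
Alad: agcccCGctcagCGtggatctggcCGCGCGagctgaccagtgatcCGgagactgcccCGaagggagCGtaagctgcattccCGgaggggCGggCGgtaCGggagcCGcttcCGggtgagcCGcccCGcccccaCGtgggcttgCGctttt
Mafg: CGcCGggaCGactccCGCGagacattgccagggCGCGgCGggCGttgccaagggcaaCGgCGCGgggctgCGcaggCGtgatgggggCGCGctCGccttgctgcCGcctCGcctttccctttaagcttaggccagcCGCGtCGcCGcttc
H3f3a: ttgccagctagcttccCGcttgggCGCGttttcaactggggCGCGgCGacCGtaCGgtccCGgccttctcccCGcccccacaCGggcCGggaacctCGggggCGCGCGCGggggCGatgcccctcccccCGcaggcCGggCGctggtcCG
Pax6: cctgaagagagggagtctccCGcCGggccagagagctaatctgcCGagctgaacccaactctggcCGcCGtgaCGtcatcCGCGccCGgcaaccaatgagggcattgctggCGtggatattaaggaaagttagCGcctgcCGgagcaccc
Cryaa: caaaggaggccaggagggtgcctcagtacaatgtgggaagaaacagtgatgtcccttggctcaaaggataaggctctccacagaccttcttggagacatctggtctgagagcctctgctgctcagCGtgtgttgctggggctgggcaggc
Mafg had 23 CpG in this stretch, H3f3a 22, Alad 18, Pax6 12 and Cryaa 1. In the window of 250 bases on each side of the start, the ratio of observed to expected CpG was 0.992 at Mafg, 0.997 at H3f3a, 0.854 at Alad, 0.662 at Pax6 and 0.278 at Cryaa. The high counts at Mafg, H3f3a and Alad follow from the pick. The members thus include starts in dense CpG as well as that of Cryaa, with 1 CpG in the stretch and 11 in the window.

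Islands held 1331369 and 1430373 reads in the epithelium libraries and 5041885 and 5359085 reads in the fiber libraries, in 10389 to 14434 and 27059 to 35940 islands. Total sequencing depth is unknown, because counts are given for islands alone, so no interval or detection limit is given. The 1105 members took 25.3% and 22.1% of all island reads in the epithelium libraries but 10.3% and 9.26% in the fiber libraries. In total length they covered 11.2 and 10.6 Mb in epithelium and 16.3 and 15.4 Mb in fibers. The limit on the length ratio, with more island reads in the fiber libraries, fixes the direction of this difference. Regions away from starts had 27.3% and 23.7% against 15.1% and 13.5%. The limit did not choose them, but they too needed an island in all 4 libraries. Widened regions had 13.3% and 12.1% against 11.5% and 10.3%. Fewer cells that carry H3.3 at a region and less H3.3 per cell cannot be told apart in these bulk samples.

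Islands in the members had a median length of 6800 and 6400 bp in the epithelium libraries and of 9400 and 8800 bp in the fiber libraries. The fiber to epithelium ratio had a median of 1.47, with quartiles of 1.21 and 1.71, and ran from 0.469 to 1.99. It was under 1 in 119 regions, 10.8% of the members. Both fiber libraries were longer than both epithelium libraries in 656 regions (59.4%), and both epithelium libraries were longer in 24 (2.17%). This count was not made over all regions. The members are thus similar in width by the rule, yet most leaned towards longer islands in fibers. Regions away from starts, which the limit did not choose, had a median ratio of 1.825, so the lean is not particular to the members. The epithelium replicates lay within 1.5-fold of each other in 679 regions (61.4%) and the fiber replicates in 865 (78.3%). In 565 regions (51.1%) each of the 4 fiber to epithelium pairs stayed under 2, and elsewhere membership rests on the mean of the replicates. The widened regions had a median of 4600 and 4200 bp in epithelium and 15800 and 14400 bp in fibers, so they were shorter than the members in epithelium and longer in fibers.

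**Figure D1:**
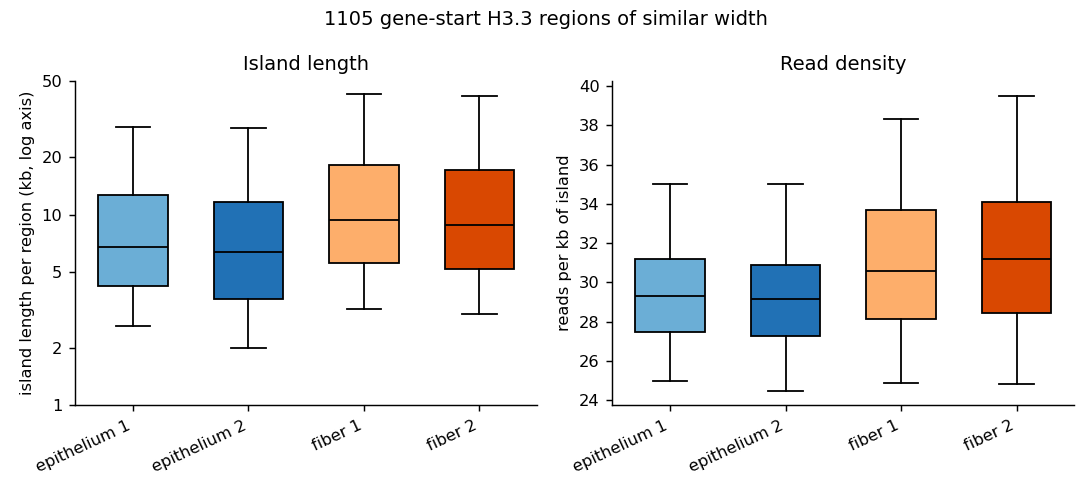
Island length per region (kb, log axis, left) and reads per kb of island (right) of the 1105 members in each library; boxes span the quartiles with the median as a line, and whiskers reach the 5th and 95th percentiles. Median length was 6800 and 6400 bp in epithelium and 9400 and 8800 bp in fibers, while median density lay between 29.2 and 31.2 reads per kb in all 4 libraries.

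The members with the longest islands were of several kinds. The region of Hspg2, which encodes the basement membrane proteoglycan perlecan, together with 1700013G24Rik and Ldlrad2, held islands of 92000 and 98400 bp in epithelium and of 117600 and 128000 bp in fibers (chr4:137442001-137579000). A region with 10 starts, among them Atf5 and Ap2a1, had 62000 bp in each epithelium library and 120600 and 120000 bp in fibers. A region with 9 starts, from Gipc3 to Smim24, had 53800 and 55800 bp in epithelium and 101000 and 92200 bp in fibers. Dynlt1b, a dynein light chain gene, had 84200 and 97600 bp in epithelium and 89000 and 89400 bp in fibers, and 67.4% of its 75-base stretches occur more than once in the assembly, where reads cannot be placed with certainty.

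At the other end of the ratio stood genes with shorter islands in fibers. Gm11627 had 8800 and 4000 bp in epithelium and 3000 bp in each fiber library, a ratio of 0.469. Ackr3, an atypical chemokine receptor gene, had 9400 and 3600 bp in epithelium and 2400 and 4400 bp in fibers, so its groups overlapped. Epop, which encodes a protein that binds Polycomb complexes, had 8600 and 4800 bp in epithelium and 4800 and 2600 bp in fibers. Mfng, a glycosyltransferase that modifies Notch receptors, had 8800 and 12400 bp in epithelium and 4800 and 7200 bp in fibers, without overlap. Adamtsl2, a secreted matrix protein gene, had 2800 and 4800 bp in epithelium and 2600 and 1800 bp in fibers. Lamc3, a laminin chain gene, was among the 24 regions that were longer in both epithelium libraries, with 8400 and 7400 bp against 5200 and 4200 bp in fibers, and was picked from that list after its values were seen.

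Members closest to the limit of 2 were the regions of Tas1r1, Nol9 and Plekhg5 (ratio 1.99), Poldip3 (1.99), Ache and Ufsp1 (1.99), Lsm4, Jund and Iqcn (1.99), and Stap2 and Mpnd (1.98). Poldip3 had 9800 bp in each epithelium library and 20600 and 18400 bp in fibers. Just outside lay 5 regions with a ratio of 2.0, at B4gat1 and Brms1, at Eif2b4, Snx17 and Zfp513, at Fam69b, at Gm43552 and at 3 histone genes led by Hist1h4n. Fam69b had 2400 and 14000 bp in epithelium and 18400 and 14400 bp in fibers, and its epithelium replicates thus differed by more than the compartments did.

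Islands of the 4 libraries covered common ground more often in the members than in the other regions of the comparison. Of 97657 windows of 200 bp that any library covered in the members, 30.8% were covered in all 4, against 12.0% in the widened regions and 17.1% in regions away from starts. The windows shared by the epithelium replicates were a fraction of 0.4745 of those that either covered, and by the fiber replicates 0.730. Between an epithelium and a fiber library the fraction was 0.525 to 0.544, higher than between the epithelium replicates. The members averaged 1.92 and 2.22 islands per region in epithelium and 1.49 and 1.66 in fibers, so the epithelium signal was more often broken into pieces. Island length entered the rule and these overlaps depend on it, so they are descriptions.

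The start base itself lay in an island at 72.8% and 69.0% of the 1751 protein-coding starts in the epithelium libraries and at 92.2% and 91.5% in the fiber libraries. At 902 starts (51.5%) it lay in islands of all 4 libraries. In the widened regions the shares were 51.1% and 52.0% in epithelium, 94.4% and 93.8% in fibers, and 32.4% for all 4. At 143 member starts both fiber libraries and neither epithelium library covered the base, so a region shared by all 4 libraries can still lack a called island at the start in epithelium. The reverse pattern occurred at 8 starts, those of 1700001O22Rik, Gjd3, Gm11733, Mfng, Mroh2a, Plxnd1, Slc19a1 and Ypel4. Gjd3 encodes a gap junction protein, Plxnd1 a semaphorin receptor and Slc19a1 the reduced folate carrier. These 8 genes were named after their values were seen.

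Around the 725 members with a single protein-coding start, islands leaned downstream, into the gene. Within 10 kb of the start, 61.3% and 61.5% of the island length lay downstream in epithelium and 59.5% and 60.2% in fibers. The fiber mean was 59.9% ± 0.552 (SD, n = 2) and the epithelium mean 61.4% ± 0.184 (SD, n = 2), a difference of -1.53 percentage points (p = 0.333 in an exact two-sided permutation test, which cannot give less). Coverage peaked 500 bp downstream of the start in the epithelium libraries, at 74.8% and 74.1% of regions, and at 100 and 500 bp in the fiber libraries, at 91.7% and 90.2%. In the widened regions the peaks were 56.8% and 53.0% in epithelium and 94.6% and 93.4% in fibers. Widened regions were chosen for short epithelium islands relative to fibers, and every start lay in the merged region, so the shares and peaks of both kinds of region differ in part through the choice and are descriptions.

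**Figure D2:**
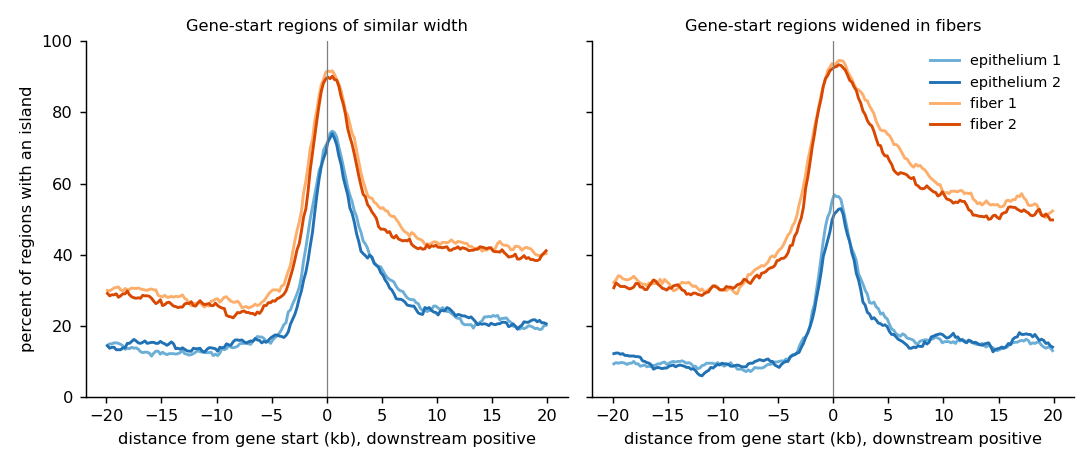
Percent of regions with an island at each distance from the gene start (kb, downstream positive) in each library, for members with a single start (left, 725 regions) and regions widened in fibers (right, 593 regions). In the members the epithelium lines peak at 74.8% and 74.1% and the fiber lines at 91.7% and 90.2%; at widened starts the epithelium lines peak at 56.8% and 53.0%.

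Genes of the members were shorter than most and stood closer to other genes. Their median length was 9215 bp, against 12976 bp for genes of widened regions and 17629 bp for all 20807 protein-coding genes of chromosomes 1 to 19. Islands covered a median of 45.8% and 44.2% of the gene in epithelium and 80.8% and 75.3% in fibers. In widened regions the medians were 20.7% and 21.0% in epithelium and 85.4% and 78.2% in fibers. The whole gene was inside islands of all 4 libraries at 117 genes (6.68%), against 31 (2.25%) in widened regions. Widened regions were chosen for short epithelium islands relative to fibers, so these shares differ in part through the choice and are descriptions. A start of a member gene had a median of 4 other protein-coding starts within 50000 bp, against 3 for widened regions and 2 for all genes. In 246 members there were 2 starts, in 134 there were 3 or more, and the largest number was 12. After the regions with 12, 10 and 9 starts came one with 8, from R3hdm4 to Abca7, and one with 7, from Elp5 to Dlg4. A start on the opposite strand, pointing away, lay within 1 kb at 11.2% of member starts, 11.3% of starts in widened regions and 6.97% of all starts. Chromosome 11 held the most members, 154, and also the most per 100 protein-coding starts, 9.40, followed by chromosome 19 with 8.76 and chromosome 17 with 8.14, while chromosome 18 had the fewest at 1.75.

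CpG-rich DNA, with an observed to expected CpG ratio of at least 0.6 and at least 50% G and C within 250 bases of the start, was found at 68.0% of member starts. The share was 71.8% in widened regions, 75.8% at starts whose region was not called in all 4 libraries, 23.1% at starts without any island and 48.8% over all genes. Members were therefore CpG-rich more often than all genes, and less often than starts in regions missing from some libraries. Among member starts covered in all 4 libraries the share was 74.1%, and among those covered in no epithelium library it was 56.8%. The GC box GGGCGG, which Sp1-type factors bind, occurred on either strand between 250 bases before and 50 after the start at 61.1% of member starts, 63.5% of starts in widened regions and 43.7% of all starts. The TATA box letters TATAAA occurred at 7.37%, 6.82% and 12.7% in the same order. The CCAAT letters were as frequent in members (38.4%) as over all genes (38.6%), the ETS letters CCGGAAG stood at 14.9% and 11.0%, and the YY1 core AAGATGG at 6.97% and 6.24%. The NRF1 core GCATGCGC was at 4.28% of member starts against 3.45% of all, and the cAMP response element TGACGTCA at 2.74% against 2.43%. Each motif was searched as exact letters on both strands, and motifs were counted separately even where they overlap.

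Lists of genes that many cell types use differed widely in how many of their starts were members. Members held 1751 of the 20807 protein-coding starts, 8.42%, and the share of each gene list is read beside that figure, without a test. Of 25 annotated starts of immediate early and stress genes, which cells switch on within minutes of a signal or under damage, 12 starts (48.0%) lay in members. Of 67 replication-dependent histone genes, 30 (44.8%) did, and of 79 ribosomal protein genes, 28 (35.4%). Glycolysis followed with 6 of 17 (35.3%), the genes for H3.3 and its chaperones with 3 of 10 (30.0%), the actin cytoskeleton with 7 of 24 (29.2%), cell cycle regulators with 6 of 22 (27.3%) and lens transcription factors with 5 of 20 (25%). Translation factors had 14 of 65 (21.5%), the respiratory chain and ATP synthase 18 of 92 (19.6%), chromatin remodelers and coactivators 5 of 30 (16.7%), splicing factors 10 of 67 (14.9%), and chaperones 11 of 87 (12.6%), a list taken by gene name that also holds Hspg2, which is no chaperone. RNA polymerase II and Mediator had 5 of 49 (10.2%), lens membrane and beaded filament proteins 1 of 11 (9.09%), proteasome subunits 3 of 47 (6.38%), crystallins 1 of 16 (6.25%) and zinc finger genes named Zfp 12 of 385 (3.12%). The 1 member of the lens membrane and beaded filament list is Grifin, which encodes a galectin and neither kind of protein. Widened regions held 6.62% of all starts, and several of the same lists stood above that figure too, with 24% of the stress genes, 28.4% of the histones, 21.5% of the ribosomal proteins, 23.5% of glycolysis and 20.8% of the actin cytoskeleton. Crystallins had 8 of 16 starts there, and cell cycle regulators 1 of 22.

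**Figure D3:**
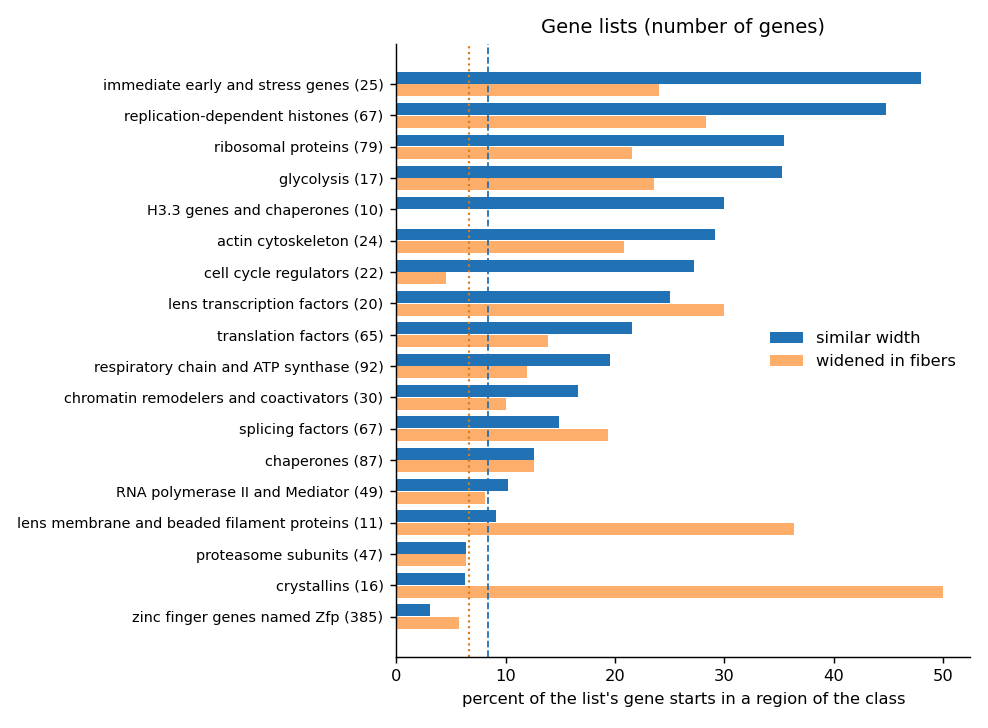
Percent of the gene starts of each list (number of genes in brackets) that lie in members (blue) and in regions widened in fibers (orange); dashed and dotted lines give the shares over all protein-coding genes, 8.42% and 6.62%. Stress, histone, ribosomal and glycolysis genes have the longest blue bars, and crystallins the longest orange bar.

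Read density, the number of reads per kb of island, was compared next, since the rule did not use its value. Island length, which the rule used, is the denominator of density. Differences in density between members and other regions may thus come in part from the rule, which was not tested. Every member also needed a called island in each library, so densities below the calling limit are not seen. Over all islands the median was 28.3 and 28.1 reads per kb in the epithelium libraries and 27.4 and 27.5 in the fiber libraries. Like densities between libraries are therefore partly built in by the calling. The median over the members was 29.3 and 29.2 reads per kb in the epithelium libraries and 30.6 and 31.2 in the fiber libraries, so both fiber medians lay above both epithelium medians. For a region the fiber to epithelium ratio of mean density had a median of 1.06, with a range of 1.05 to 1.06 over the 4 pairs of libraries (p = 0.333 in an exact two-sided permutation test, which cannot give less). The same median was 1.02 in widened regions and 1.02 away from starts. Within each library, the median density of the members was 1.01, 0.993, 1.02 and 1.03 times that of widened regions in epithelium 1, epithelium 2, fiber 1 and fiber 2. The mean ratio was 1.02 ± 0.0185 (SD, n = 4; exact sign-flip permutation test, p = 0.25). Against regions away from starts the 4 ratios were 1.03, 1.02, 1.06 and 1.06, a mean of 1.04 ± 0.0175 (SD, n = 4; exact sign-flip permutation test, p = 0.13, the smallest possible). With means over regions in place of medians, the latter ratio was 0.963, and its direction turned.

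A model over all 3839 regions in 4 libraries (edgeR's quasi-likelihood test, with island length and library medians as offsets and Benjamini-Hochberg adjustment) called 48 of 1105 members (4.34%) higher in fibers, where 3.49% of all regions were called, and 3 (0.271%) lower, where 0.469% of all regions were called. The shares of members are near those of all regions. Densities of both fiber libraries lay above both epithelium libraries in 448 members (40.5%), against 33% of all regions, and below in 123 (11.1%), against 15.8%. These densities were not divided by the library factors of the model, 0.984 and 0.983 in epithelium and 1.01 and 1.02 in fibers. Counts of such separation therefore lean towards fibers. The 48 regions were 1.13 to 1.54 times denser in fibers, with a median of 1.22, and in each of them both fiber libraries were above both epithelium libraries. They were large, with a median of 598 reads in the poorest library against 144 over all members. Calls depended on the tool, since DESeq2 called 14 of the members higher and 1 lower, and limma called 0, with 135 members at an unadjusted p under 0.05. With 1 library left out, edgeR called 24 to 39 members higher, with 24 without epithelium replicate 2, 29 without epithelium replicate 1 and 29 without fiber replicate 2, and 16 regions were called each time.

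**Figure D4:**
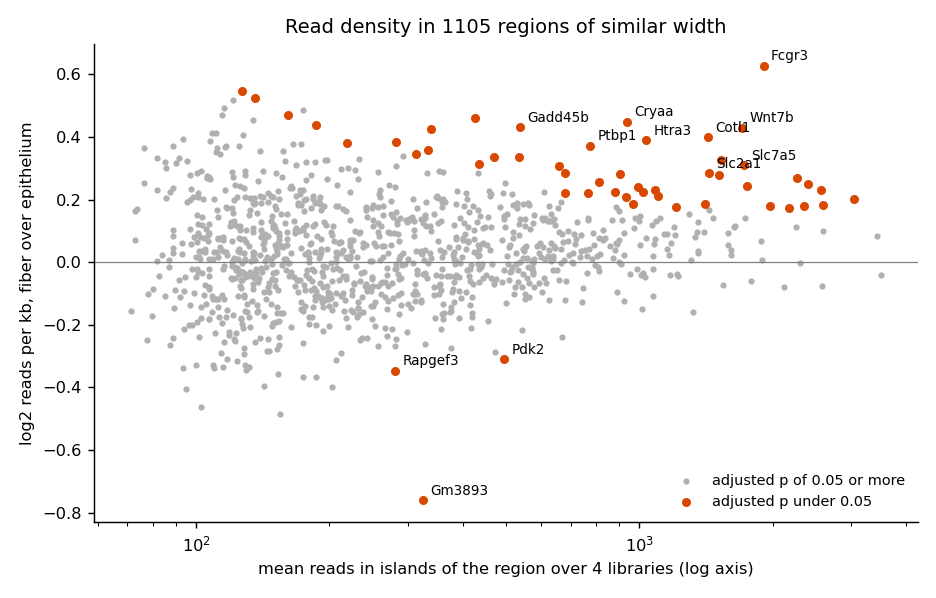
Log2 ratio of reads per kb in fibers to epithelium (edgeR estimate) against the mean reads per region over 4 libraries (log axis), 1 point per member; orange points had an adjusted p under 0.05. The 48 regions called higher are spread over the upper side and mostly hold many reads, and Gm3893, Pdk2 and Rapgef3 are the 3 called lower.

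Cryaa, the gene for αA-crystallin, a small heat shock protein and a main protein of the lens, was the 1 crystallin among the members and was denser in fibers. Its region (chr17:31665801-31694200), with the gene at chr17:31677807-31681733 on the plus strand, had islands of 22600 and 19200 bp in epithelium and of 28400 and 28200 bp in fibers. It held 30.2 and 31.5 reads per kb in the epithelium libraries and 45.3 and 41.6 in the fiber libraries, a log2 ratio of 0.45 ± 0.06 (SE; edgeR adjusted p = 2.67e-06). Both fiber libraries were above both epithelium libraries by more than the replicates differed. The start base was in an island of all 4 libraries although its surroundings hold few CpG, as the sequence above shows.

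Fcgr3, an Fc receptor gene of immune cells, had the lowest adjusted p, with 63.5 and 63.6 reads per kb in epithelium and 101.7 and 101.4 in fibers (log2 0.63 ± 0.04 SE, edgeR adjusted p = 5.60e-13). Of its 75-base stretches 70.4% occur more than once in the assembly, so its reads cannot be assigned to this gene with certainty.

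Wnt7b, a secreted Wnt ligand, had 29.9 and 29.9 reads per kb in epithelium and 42.4 and 40.7 in fibers (log2 0.43 ± 0.05 SE, edgeR adjusted p = 3.80e-08), and its replicates stayed close in both compartments. Cotl1, which encodes an actin-binding protein of the cofilin family, had 32.7 and 31.6 in epithelium and 43.3 and 44.5 in fibers (log2 0.40 ± 0.05 SE, edgeR adjusted p = 5.81e-07). Htra3, a secreted serine protease gene, had 28.6 and 29.8 in epithelium and 38.7 and 40.6 in fibers (log2 0.39 ± 0.05 SE, edgeR adjusted p = 7.95e-06). In these regions fiber islands were also longer, with 57400 and 57800 bp against 32400 and 36000 bp at Wnt7b.

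Slc7a5, which carries large neutral amino acids into cells, had 29.5 and 30.0 reads per kb in epithelium and 38.7 and 37.5 in fibers (log2 0.31 ± 0.05 SE, edgeR adjusted p = 1.93e-05). Fam222a had 29.9 and 28.5 in epithelium and 38.2 and 37.5 in fibers. Ptbp1, a repressor of alternative exons, had 35.2 and 31.9 in epithelium and 43.7 and 45.8 in fibers (log2 0.37 ± 0.06 SE, edgeR adjusted p = 0.000121), with islands of like length in both (16800 and 21800 bp against 21200 and 19400 bp). The 10 regions with the lowest adjusted p also held those of Smim4, Nt5dc2, Stab1 and Tnnc1 (fold 1.21) and of Prrc2b and Pomt1 (fold 1.19).

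Among the 3 regions with lower density in fibers, Gm3893 had 64.3 and 60.7 reads per kb in epithelium and 36.5 and 39.9 in fibers (log2 -0.76 ± 0.09 SE, edgeR adjusted p = 6.85e-07), and 100% of its 75-base stretches are repeated. Pdk2, a kinase that turns off pyruvate dehydrogenase, had 31.9 and 30.5 in epithelium and 27.2 and 24.6 in fibers (log2 -0.31 ± 0.08 SE, edgeR adjusted p = 0.0145), and its islands were shorter in fibers as well, 15800 and 14000 bp against 16800 and 22000 bp. Rapgef3, an exchange factor activated by cAMP, had 28.8 and 29 in epithelium and 22.5 and 24.6 in fibers (log2 -0.35 ± 0.10 SE, edgeR adjusted p = 0.0459). The calls of Pdk2 and Rapgef3 were lost without single libraries, Pdk2 without epithelium replicate 1 or fiber replicate 2 (highest edgeR adjusted p = 0.165) and Rapgef3 without any one of the 4 (highest edgeR adjusted p = 0.230).

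**Figure D5:**
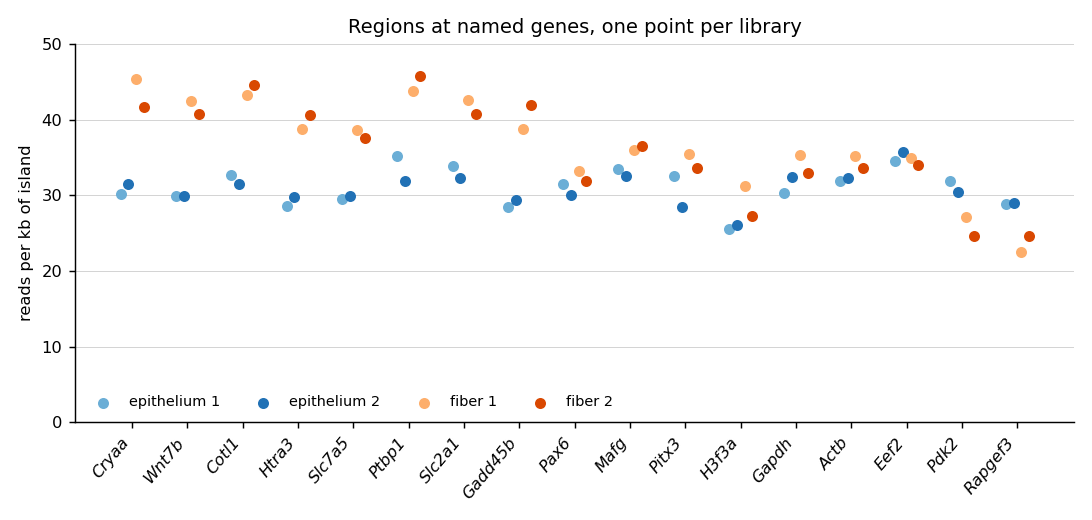
Reads per kb of island at regions of 17 named genes, 1 point per library, axis from 0. From Cryaa to Gadd45b both fiber points stand above both epithelium points, at Pax6, Mafg, Gapdh and Actb the 4 points lie close, and at Pdk2 and Rapgef3 the fiber points are below.

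Glycolysis genes were represented by 6 regions, all with a log2 density ratio above 0, as had 59.1% of all members, and 1 of them called. Slc2a1, which encodes the glucose transporter GLUT1, had 33.9 and 32.3 reads per kb in epithelium and 42.6 and 40.7 in fibers (log2 0.28 ± 0.05 SE, edgeR adjusted p = 0.000132), with islands of 35400 and 37600 bp against 37200 and 42800 bp. Gapdh had 30.3 and 32.4 in epithelium and 35.3 and 33.0 in fibers (log2 0.07 ± 0.06 SE, edgeR adjusted p = 0.591), and Aldoa and Eno1 gave log2 0.05 and 0.06. Hk2, which encodes hexokinase 2, had the largest ratio of the 6 and was picked after its values were seen. It had 23.4 and 27.7 in epithelium and 31.7 and 36.2 in fibers (log2 0.37 ± 0.16 SE, edgeR adjusted p = 0.226), in islands of 2200 to 5800 bp.

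Immediate early and stress genes filled 11 regions, of which 2 were called higher and 0 lower by edgeR, at Gadd45b and Ddit3. Gadd45b, a growth arrest and DNA damage gene, had 28.4 and 29.3 reads per kb in epithelium and 38.7 and 42.0 in fibers (log2 0.43 ± 0.07 SE, edgeR adjusted p = 0.000192). Ddit3, which is annotated under 2 gene records and encodes the stress factor CHOP, gave log2 0.22 ± 0.06 SE (edgeR adjusted p = 0.0457) in a region it shares with Mbd6. The call of Ddit3 was lost without any one of the 4 libraries (highest edgeR adjusted p = 0.318, without epithelium replicate 2) and with DESeq2, which leaves 1 call in the list, while Gadd45b kept its call each time. Atf4, the activator of the amino acid response, had 32.7 and 30.5 in epithelium and 35.9 and 36.1 in fibers (edgeR adjusted p = 0.39), without overlap but short of the threshold. Gadd45g and Ier2 had log2 ratios of 0.13 and 0.19. Fos, Fosb, Junb and Jund, subunits of the AP-1 factor, were also members and none of them was called.

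Ribosomal protein genes lay in 27 regions, with a median log2 ratio of 0.11 beside 0.03 over all members, and 24 of the 27 were above 0, against 59.1% of all members. Of these, 3 were called higher and 0 lower by edgeR, at Rpl14, Rpl19 and Rps15. None of the 3 calls held without epithelium replicate 2 (edgeR adjusted p = 0.486 for Rpl14, 0.213 for Rpl19 and 0.118 for Rps15). Rpl14 was also lost without any other library, Rpl19 without fiber replicate 1 and Rps15 without epithelium replicate 1, and DESeq2 called none of them. Rpl19 shares its region with the start of Cacnb1. Rps15 shares its region with 5 other starts, among them Ndufs7, and had 31.6 and 31.4 reads per kb in epithelium and 36.8 and 36.7 in fibers (log2 0.17 ± 0.04 SE, edgeR adjusted p = 0.00843). Rpl14 had 27.1 and 25.6 in epithelium and 34.6 and 33.9 in fibers, yet its islands measured 3400 and 10800 bp in the epithelium replicates. Rpl12 had 37.7 and 30.1 in epithelium and 39.9 and 34.0 in fibers, and the compartments overlapped.

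Translation factors lay in 14 regions with a median log2 ratio of 0.06, and 1 was called, at Eif5a. Eif5a, the factor modified with hypusine, had 31.1 and 27.1 reads per kb in epithelium and 35.3 and 39.2 in fibers (log2 0.31 ± 0.07 SE, edgeR adjusted p = 0.00786). Eef2, which moves the ribosome along the message, had 34.5 and 35.7 in epithelium and 34.9 and 34.0 in fibers, so its values overlapped. The respiratory chain and ATP synthase filled 18 regions (median log2 0.13), with 2 called, at Atp5d (log2 0.18, edgeR adjusted p = 0.0089) and at Ndufs7, which is the region of Rps15. Of the actin cytoskeleton, Pfn1, which encodes profilin, had 31.3 and 30.1 in epithelium and 38.9 and 36.2 in fibers (log2 0.24 ± 0.06 SE, edgeR adjusted p = 0.00786), and Ezr, the membrane linker ezrin, gave log2 0.19 ± 0.05 SE (edgeR adjusted p = 0.0217). Without epithelium replicate 2 the calls of Eif5a (edgeR adjusted p = 0.28), Atp5d (0.233) and Pfn1 (0.123) were lost, and without epithelium replicate 1 that of Ezr (0.375). Atp5d, Pfn1 and Ezr were also lost without fiber replicate 1, Eif5a without fiber replicate 2, and DESeq2 called none of the 4. The regions of Eif5a, Atp5d and Pfn1 hold 4, 7 and 6 starts, so their densities cannot be assigned to these genes alone. Actb had 31.9 and 32.4 in epithelium and 35.3 and 33.6 in fibers and was not called, nor were Actg1, Cfl1, Myh10 and Rhoa.

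Replication-dependent histone genes, whose products package newly copied DNA in dividing cells, filled 11 regions in the clusters of chromosomes 13 and 3. Their median log2 ratio was -0.03, 4 of 11 were above 0 and 0 were called by edgeR. The region of Hist1h2bq, Hist1h2ao and Hist1h4m had 35 and 41.9 reads per kb in epithelium and 35.2 and 42.4 in fibers, so the replicates of each compartment differed far more than the compartments. There 94.2% of 75-base stretches are repeated. Cell cycle regulators were 6 regions with a median log2 ratio of -0.01, with none called. Cdk4, the partner of D cyclins, had 33.1 and 35.7 in epithelium and 35 and 37.2 in fibers, Ccnd1 had 29.6 and 32.05 against 32.4 and 33.1, and Cdkn1c, an inhibitor used when fibers leave the cycle, had 28.0 and 30.2 against 26.8 and 28.9.

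Lens transcription factors among the members were Pax6, Mafg, Mafk, Pitx3 and Hes1, with a log2 density ratio above 0 in each and none called. Pax6 (chr2:105668900-105697364, plus strand) had islands of 37200 and 38800 bp in epithelium and 46400 and 49000 bp in fibers, and 31.5 and 30.0 reads per kb against 33.2 and 31.9 (log2 0.03 ± 0.05 SE, edgeR adjusted p = 0.789). Mafg, in a region with 6 starts, had 33.5 and 32.5 in epithelium and 35.9 and 36.5 in fibers (edgeR adjusted p = 0.402). Pitx3, a homeobox factor needed for lens development, had 32.5 and 28.5 in epithelium and 35.4 and 33.6 in fibers, and Mafk 28.6 and 29.1 against 33.7 and 32.8. Hes1, a Notch target, had 30.5 and 27.4 against 32.2 and 31.8. At each of the 5 factors both fiber values lay above both epithelium values, as in 40.5% of members and 33% of all regions. These values lack the library correction of the model, and none of the differences passed its test. Grifin, a lens galectin, was the 1 member of the lens membrane and beaded filament list, with 30.7 and 29.6 in epithelium and 32.5 and 29.8 in fibers.

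The genes of the H3.3 pathway that were members are H3f3a, Daxx and Cabin1. H3f3a had 11000 and 8400 bp in epithelium and 12800 and 12600 bp in fibers, with 25.6 and 26.1 reads per kb against 31.2 and 27.2 (log2 0.13 ± 0.10 SE, edgeR adjusted p = 0.552). Daxx, an H3.3 chaperone, had 29.5 and 29.8 against 30.8 and 31.9, and Cabin1, a subunit of the HIRA complex, 22.5 and 24.0 against 26.3 and 27.1. The other 7 of the 10 genes lay in regions not called in all 4 libraries. Among chromatin genes Brd2, Smarca5, Tet3, Chd4 and Kmt2d were members without a call, with log2 ratios between -0.07 and 0.32. Of the remaining lists edgeR called 1 region, that of Med25, and none of the chaperone, splicing, proteasome or Zfp regions. The region of Med25 holds 10 starts, among them Atf5 and Ap2a1.

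Markers of the compartments and of other tissues were checked in the islands. All 11 lens fiber markers had their start base in an island of both fiber libraries, and Cryaa, Crybb1, Bfsp2 and Cryba1 also in both epithelium libraries. Of 6 lens epithelium markers, Pax6 was a member, Foxe3 and Cdh1 lay in regions not called in all 4 libraries, and Gja1, Pdgfra and Tfap2a had no island at the start. The start of Pax6 was covered in all 4 libraries, that of Foxe3 in epithelium 2 and both fiber libraries, and that of Cdh1 in both fiber libraries alone. No epithelium marker was thus covered in epithelium alone, so these markers did not set the epithelium libraries apart. The purity of the microdissection was not tested. Of 4 leukocyte markers Cd68 was in a member, and its region also holds the start of Eif4a1. No start of the 3 blood, 3 corneal or surface epithelium and 3 muscle markers lay in an island, 1 of 5 endothelium markers (Cdh5) did and 1 of 4 pigment cell markers (Dct) did, in fiber 2.

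Repeated sequence marked the densest members. At least 10% of 75-base stretches, the length of a read, were repeated in 34 members (3.08%), against 1.33% of widened regions and 3.44% of regions away from starts. Of the 20 members with the most reads per kb, 8 were of this kind. The 5 densest were Fcgr3, the interferon cluster of Ifnz and 11 neighbouring genes on chromosome 4, Gm3893, Rpusd2, and the region of Alad with Hdhd3, Pole3 and 4933430I17Rik. The interferon cluster had 47.2 and 48.8 reads per kb in epithelium and 54.9 and 62.9 in fibers, with 86.7% of stretches repeated. Rpusd2, a pseudouridine synthase gene, had 43.3, 30.0, 30.0 and 66.0 reads per kb in epithelium 1, epithelium 2, fiber 1 and fiber 2, so its rank rests on single libraries with 52 to 108 reads. The region of Alad (chr4:62492001-62526200) had 44.6 and 39.8 in epithelium and 39.5 and 38.7 in fibers, and islands of 33000, 31200, 34200 and 31800 bp, the most even of the 5 in both measures. Without the 34 regions, 49 of 1071 members were called higher and 4 lower by edgeR.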

How the data were processed

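H3.3 ChIP-seq was analysed in 4 of 17 samples. Reads (75 nt, single end) were aligned by the authors to mm10 with BWA, and SICER2 was run per library to find islands (window 200 bp, gap 600 bp, false discovery rate 0.01, per the labels). For every island the deposited tables hold coordinates and a read count that the authors left unnormalized. Duplicate removal and the control used in calling are not given in the sources used here. The pooled input and the 12 bisulfite libraries were not analysed here.

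Islands overlapping by 1 bp or more across libraries were merged and joined to gene starts of GENCODE vM21, on mm10. Read counts per region were tested with edgeR 4.0.16 (quasi-likelihood, adjusted p under 0.05). The offset was the log of island length plus a library factor that equalises the median log density. DESeq2 1.42.0, limma 3.58.1, other library factors, a minimum of 50 reads, a replicate block and leaving out each library were alternatives. Regions with under 10% repeated 75-mers were an alternative chosen after seeing the data. Single values were compared by exact permutation over libraries. Scripts ran in Python 3 with numpy and R 4.3.3 and were tested on simulated data.

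The members and the gene lists were chosen with earlier results of these data known. Named regions are the 5 with the most reads per kb, the 5 longest, the 5 lowest ratios, the 5 on each side of the limit, the 5 with most starts, up to 10 called in each direction by adjusted p, and up to 4 per gene list by density. Other names are marked or stand in counts. Some items that the rule would name are not reported here.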

Additional observations from a re-analysis of the deposited data

Results flagged for a closer look

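The chromosomes outside the choice of members held 3 regions that met the rest of the rule, 1 on chromosome X at Gm21887 and 2 on chromosome Y at Gm21860 with Gm47283 and at Gm21748. These data entered none of the comparisons. At Gm21887 islands measured 52800, 52800, 52800 and 53000 bp in epithelium 1, epithelium 2, fiber 1 and fiber 2, with 79.2, 75.8, 84.5 and 72.6 reads per kb. At Gm21860 with Gm47283 the densities were 75.9, 74.6, 84.3 and 75.9 reads per kb in the same order. With 2 libraries in a group, the search for a library that stands apart from its group was not made.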

How the results depend on the processing

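Density calls were the least stable result. Members called higher in fibers numbered 48, and 83 without a library factor, 14 with DESeq2's Wald test, 0 with limma and 24 to 39 with 1 library left out. Members called lower numbered 3, and 5 with TMM factors, 1 with DESeq2's Wald test, 0 with limma, 8 with the replicate block and 2 to 4 with 1 library left out. Whether replicate numbers pair the samples is not given. The correlation of replicate differences between compartments was 0.0118, which cannot show whether pools shared animals, and the block gave 59 members called higher. For 13 named regions, 154 pairs of a region and an alternative fit gave 132 kept calls, 22 lost calls and 0 changes of sign. None of the 13 kept its call with limma. Those called higher were named for the lowest adjusted p, and of all 48 members called higher 16 kept the call without each library in turn.

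The median density ratio of 1.06 was 1.085 with densities divided by the library's median island, 1.065 as a mean, 1.046 with islands within 1 kb merged, 1.043 with the densest island of each region, and 1.062 to 1.08 with 1 library left out. The density of members against regions away from starts, 1.04 within libraries, was 0.963 with means and 1.02 when islands below the median density of their library were dropped. The downstream share differed by -1.53 percentage points, and by -2.38 within 5 kb and -0.949 with the start of the longest gene in every member. Leaving out 1 library kept this difference between -1.92 and -1.14. The number of members, 1105, was 586 with a ratio under 1.5, 423 when islands below their library's median density were dropped and 702 when every library was cut to an equal number of islands, but 1616 with a ratio under 3, 1437 with the starts of all transcripts and 1107 to 1534 with 1 library left out. The CpG-rich share of 68.0% was 53.2% upstream of the start alone and 49.6% with a ratio of at least 0.75. The cause of these changes was not tested.

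With 2 libraries per compartment and unknown depth, island length cannot be told apart from sequencing depth, and fewer cells or less H3.3 per cell cannot be told apart.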
